A study of Homo sapiens with 9 samples.

Results

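The genes described here encode the machinery that carries proteins into mitochondria and folds them inside. They were chosen by name, 36 genes of the TOM, TIM, SAM and matrix chaperone families and their helpers, and a gene was kept where at least 10 counts were present in at least 3 of the 9 libraries. Of the 36 listed genes, each with a row among the 63187 of the count table, 35 passed and belonged to the 16030 genes tested. TOMM6, a small subunit of the outer membrane channel, did not. It had 0 counts in every library, and 100% of its exon length is shared with ENSG00000124593, a read-through gene on the same strand with 17 to 46 counts. Reads that fell on more than 1 gene were ignored in the counting, so this 0 is no measure of TOMM6.

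RNA was sequenced from BEAS-2B, an immortalized human bronchial epithelial cell line, in 3 conditions with 3 libraries each. Control cells were left untreated in culture medium. PG/VG cells were kept for 24 h in a 2% (v/v) dilution of condensed aerosol from propylene glycol and vegetable glycerine, the carrier. EC cells were kept for 24 h in the same 2% dilution of condensed aerosol from an e-cigarette liquid with 18 mg/mL nicotine and Virginia tobacco flavor. EC and PG/VG therefore differ in nicotine and flavor together. The authors give the ratio of propylene glycol to glycerine for the PG/VG liquid only, so the carrier may differ too. All 9 libraries come from 1 cell line at 1 time point. The labels number the libraries 2, 3 and 4 within each condition and give the same number as batch, without saying what a batch is. The authors describe the replicates as biological.

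Libraries held 16168260 to 24917838 counts on genes, and the controls were the 3 shallowest. The axis with the largest share of the variance, 44.5%, set the batch 4 libraries apart from the other 6. The batch given by the labels was a term in every comparison. Of the 9 markers examined for the line, 7 epithelial and 2 mesenchymal, the keratins KRT8 (1060 ± 177 CPM in control, SD, n = 3, where CPM is the gene's count scaled to the library's total on tested genes after edgeR's TMM adjustment), KRT7 and KRT18 were abundant, whereas EPCAM (1.20 ± 0.457 CPM) and CDH1 (0.684 ± 0.452 CPM) were near the limit of detection and KRT5 had at most 1 count in a library. The mesenchymal genes VIM (1070 ± 70.8 CPM) and CDH2 (331 ± 58.3 CPM) were also high. The summed CPM of the 7 epithelial markers lay between 1780 and 2840 in control, between 1720 and 2740 in PG/VG, and between 1460 and 2290 in EC. Of the 6 tested ones, KRT8, KRT18 and KRT7 fell in EC vs. control and KRT7 also in EC vs. PG/VG (log2 fold change, LFC, of −0.32, edgeR's adjusted p = 0.032), whereas KRT19, EPCAM and CDH1 had LFCs of 0.18, 0.57 and 0.36 in EC vs. control and did not pass. The sum of VIM and CDH2 lay between 1340 and 1480 CPM in control, above 1150 to 1270 in PG/VG and 1110 to 1310 in EC, and CDH2 fell in EC and VIM in PG/VG. The part of these genes in the results below was not tested. The summed CPM of the 5 fibroblast markers, carried by COL1A1 and PDGFRB with COL1A2 and DCN near 0, lay between 72.8 and 149 in control, 91.1 and 183 in PG/VG, and 88.1 and 168 in EC. PDGFRB rose in both treatments and COL1A1 in PG/VG. Of 3 immune markers, CD3E was at 0 in all libraries, PTPRC had at most 2 counts, and CD14 had 58 to 209 counts, with LFCs of 0.57 in PG/VG (adjusted p = 0.0626) and 0.45 in EC (adjusted p = 0.0908). Of 3 endothelial markers, PECAM1 and VWF had at most 12 and 11 counts, and CDH5 had 72 to 134 counts, with LFCs of −0.44 in EC (adjusted p = 0.0688) and −0.19 in PG/VG (adjusted p = 0.526). The 4 markers of ciliated or secretory airway cells had at most 12 counts each. The part of these lists was not tested either. In bulk RNA, fewer cells expressing a gene and less of its RNA per cell cannot be told apart.

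Most mitochondrial proteins are made in the cytosol and enter through the TOM channel of the outer membrane. From there, proteins with a cleavable presequence are passed to the TIM23 complex of the inner membrane and pulled into the matrix by a motor built around the chaperone HSPA9, carrier proteins are escorted by small TIM chaperones to TIM22, beta-barrel proteins are inserted by SAM, and proteins with disulfide bonds are trapped by the CHCHD4 relay. In the matrix, a peptidase removes the presequence and the chaperones HSPA9, HSPD1, HSPE1 and TRAP1 help fold the product.

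HSPA9, TRAP1 and TOMM20 fell in both treatments, and their promoters are shown for that reason. Each line gives the 250 bases before the RefSeq start in the direction of transcription, 5′ to 3′, from RefSeq on GRCh38.p14. All 3 genes lie on the minus strand. The windows are chr5:138575402-138575651 for HSPA9, chr16:3717525-3717774 for TRAP1 and chr1:235128838-235129087 for TOMM20. The HSPA9 window lies wholly and the TRAP1 window partly within the gene bounds of GENCODE 44, which place the start farther upstream. Capitals mark matches to the motifs named after the sequences.
HSPA9: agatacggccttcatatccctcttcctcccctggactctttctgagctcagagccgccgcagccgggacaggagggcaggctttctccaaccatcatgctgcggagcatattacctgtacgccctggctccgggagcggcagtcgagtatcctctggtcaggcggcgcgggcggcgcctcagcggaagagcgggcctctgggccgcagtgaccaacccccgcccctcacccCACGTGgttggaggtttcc
TRAP1: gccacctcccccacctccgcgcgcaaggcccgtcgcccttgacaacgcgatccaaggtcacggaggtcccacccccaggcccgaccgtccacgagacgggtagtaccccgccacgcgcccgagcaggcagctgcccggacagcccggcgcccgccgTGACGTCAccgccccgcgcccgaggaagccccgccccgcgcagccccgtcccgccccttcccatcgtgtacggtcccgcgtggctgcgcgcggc
TOMM20: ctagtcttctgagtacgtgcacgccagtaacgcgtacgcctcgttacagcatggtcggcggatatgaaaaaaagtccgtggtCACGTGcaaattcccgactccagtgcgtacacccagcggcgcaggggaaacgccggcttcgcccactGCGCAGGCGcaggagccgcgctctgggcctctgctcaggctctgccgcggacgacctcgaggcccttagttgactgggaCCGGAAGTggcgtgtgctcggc

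The motifs were searched on both strands of windows of 300 bases, 250 before and 50 after the start, and none overlapped another in the lines above. HSPA9 carried the E-box CACGTG 19 bases before its start. TRAP1 carried the cyclic AMP response element TGACGTCA 94 bases before its start. TOMM20 carried 3 motifs, the NRF1 motif GCGCANGCG 101 bases, the ETS motif CCGGAAGT 22 bases and an E-box 168 bases before its start. None of these motifs was in the printed bases of all 3 genes, and the E-box was in those of HSPA9 and TOMM20. Windows were found for 33 of the 36 listed genes, and TOMM5, TIMM8B and GRPEL1 had none. The NRF1 motif, bound by a regulator of nuclear genes for mitochondria, was present in 12 of the 33 windows (36.4%), in 16.6% of the windows of tested genes and in 9.02% of all windows. The ETS motif was in 7 (21.2%, against 9.5% of tested genes and 4.95% of all), and the E-box in 6 (18.2%, against 12.3% and 8.77%). The cyclic AMP response element was in that of TRAP1 alone (3.03%, against 3.81% and 2.25%). A heat shock pair, GAANNTTC or TTCNNGAA, was in 4 (12.1%, against 13.6% and 16.2%), that of HSPA9 not wholly among the bases printed, and the C/EBP-ATF motif TTGCATCA in those of TIMM22 and PMPCB (6.06%, against 0.77% and 1.08%). These shares are descriptions of the letters in these windows.

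Before any comparison, the members spanned a wide range of expression. Per exon length, on the scale of RPKM in control cells, the chaperonin HSPD1 was the highest with 100 ± 4.21 RPKM (SD, n = 3), and its 3 libraries lay above those of the next gene, HSPA9, with 78.2 ± 9.99 RPKM. TOMM34, a cytosolic co-chaperone of precursor proteins, followed with 67.4 ± 13.6 RPKM and TOMM20, a receptor that recognizes presequences, with 59.8 ± 2.42 RPKM. The libraries of HSPA9, TOMM34 and TOMM20 overlapped from neighbour to neighbour in that order. At the other end, PAM16, a regulatory subunit of the motor, had 1.03 ± 0.231 RPKM, and TOMM5, a small subunit of the TOM channel, 0.444 ± 0.122 RPKM. These 2 genes had 23 to 60 and 17 to 97 counts per library, and 22.4% and 18.9% of their exon length is shared with read-through genes, so their levels are uncertain.

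**Figure D1:**
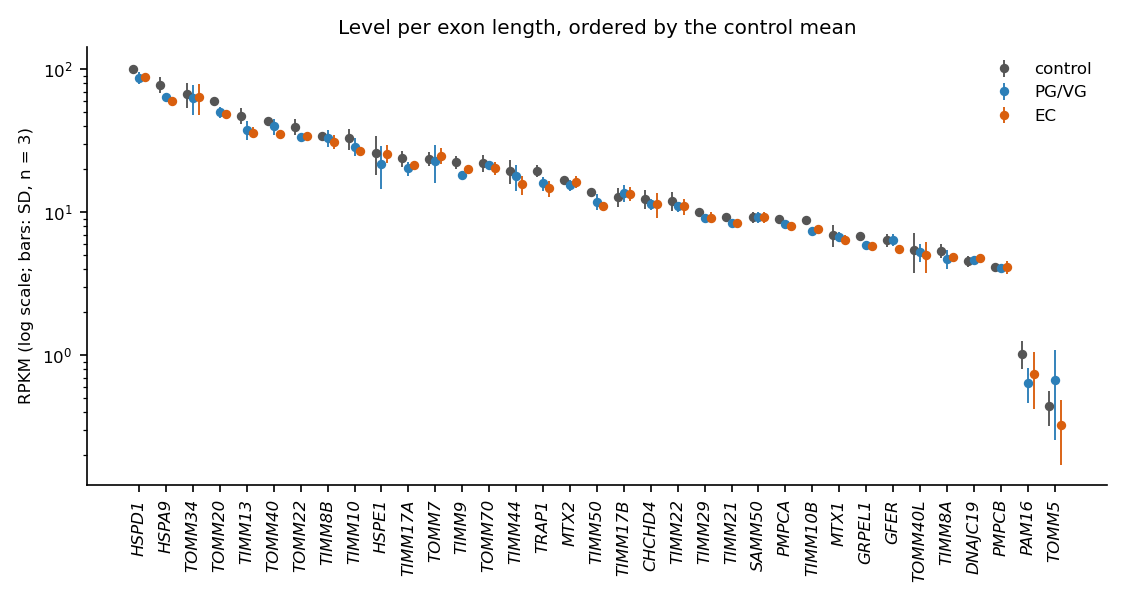
Mean level per exon length (RPKM, log axis) of the 35 tested genes in control, PG/VG and EC, with bars for the SD of 3 libraries, ordered by the control mean. HSPD1 stands highest in control with 100 RPKM and TOMM5 lowest with 0.444 RPKM.

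The EC vs. control comparison asked what the complete condensate changed. In EC, 7 of the 35 genes fell and 0 rose (edgeR's quasi-likelihood test, Benjamini-Hochberg adjusted p under 0.05), which is 20% of them. They were the presequence receptor TOMM20, the channel protein TOMM40, the small TIM chaperone TIMM13, the TIM23 receptor TIMM50, the motor anchor TIMM44, the motor chaperone HSPA9 and the matrix chaperone TRAP1. Of all 16030 tested genes, 13.5% were called, 8.07% higher and 5.38% lower. With library size as the only scaling, 6 genes were called lower, without TIMM13, and the split over all genes was 1863 higher and 486 lower in place of 1294 and 863. The falls were modest, between 18.3% and 24.7% on the fitted scale. The LFC was below 0 for 30 of the 35 genes, against 48.5% of all tested genes, and its median was −0.14, against 0.01 over all. Within batches 2, 3 and 4 the median difference was −0.10, −0.17 and −0.24. Of the 35 genes, 20 were lower in EC in all 3 batches (21.7% of all tested genes were), and in 12 the EC libraries lay wholly below the controls (7.42% of all tested genes). In this and the next comparison the same 3 control libraries were used.

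The PG/VG vs. control comparison asked what the carrier alone changed. In PG/VG, 3 of the 35 genes fell, TOMM20, HSPA9 and TRAP1, and 0 rose, which is 8.57% of them. Over all tested genes 4.54% were called, 2.63% higher and 1.9% lower. Again 30 of the 35 LFCs were below 0, against 47.1% of all tested genes, with a median of −0.13 against 0.01. The median difference was −0.13, −0.11 and −0.26 in batches 2, 3 and 4. In all 3 batches 19 genes were lower in PG/VG, against 20.1% of all tested genes, and in 10 the groups did not overlap, against 6.37%. The calls changed with single libraries, as did the number of calls over all tested genes, whose range is given further below. Without PG/VG replicate 2, 0 genes were called, without control replicate 3 or control replicate 4 only 1 (PAM16 and HSPA9, respectively), and without EC replicate 2, which enters only through the batch term and the shared estimate of the spread, 9. Without PG/VG replicate 3 the number stayed at 3, but the genes called were TIMM9, TIMM50 and TIMM13 in place of TOMM20, HSPA9 and TRAP1.

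EC vs. PG/VG compared the complete condensate with the carrier alone, a difference in nicotine and flavor and possibly in the carrier ratio. None of the 35 genes passed the edgeR test, where 0.855% of all tested genes did, and 3 had an unadjusted p under 0.05. DESeq2 with the batch in the model also called 0. The LFC was above 0 for 15 genes and below 0 for 20, with a median of −0.01 against 0.00 over all tested genes. The difference between the treatments was −0.11 ± 0.066 (SE) for HSPA9, −0.13 ± 0.070 for TRAP1 and −0.04 ± 0.068 for TOMM20. The genes called in EC alone are not shown to differ between EC and PG/VG, the nearest being TIMM44 (LFC −0.17 ± 0.073, adjusted p = 0.304) and TOMM40 (−0.17 ± 0.077, adjusted p = 0.35).

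**Figure D2:**
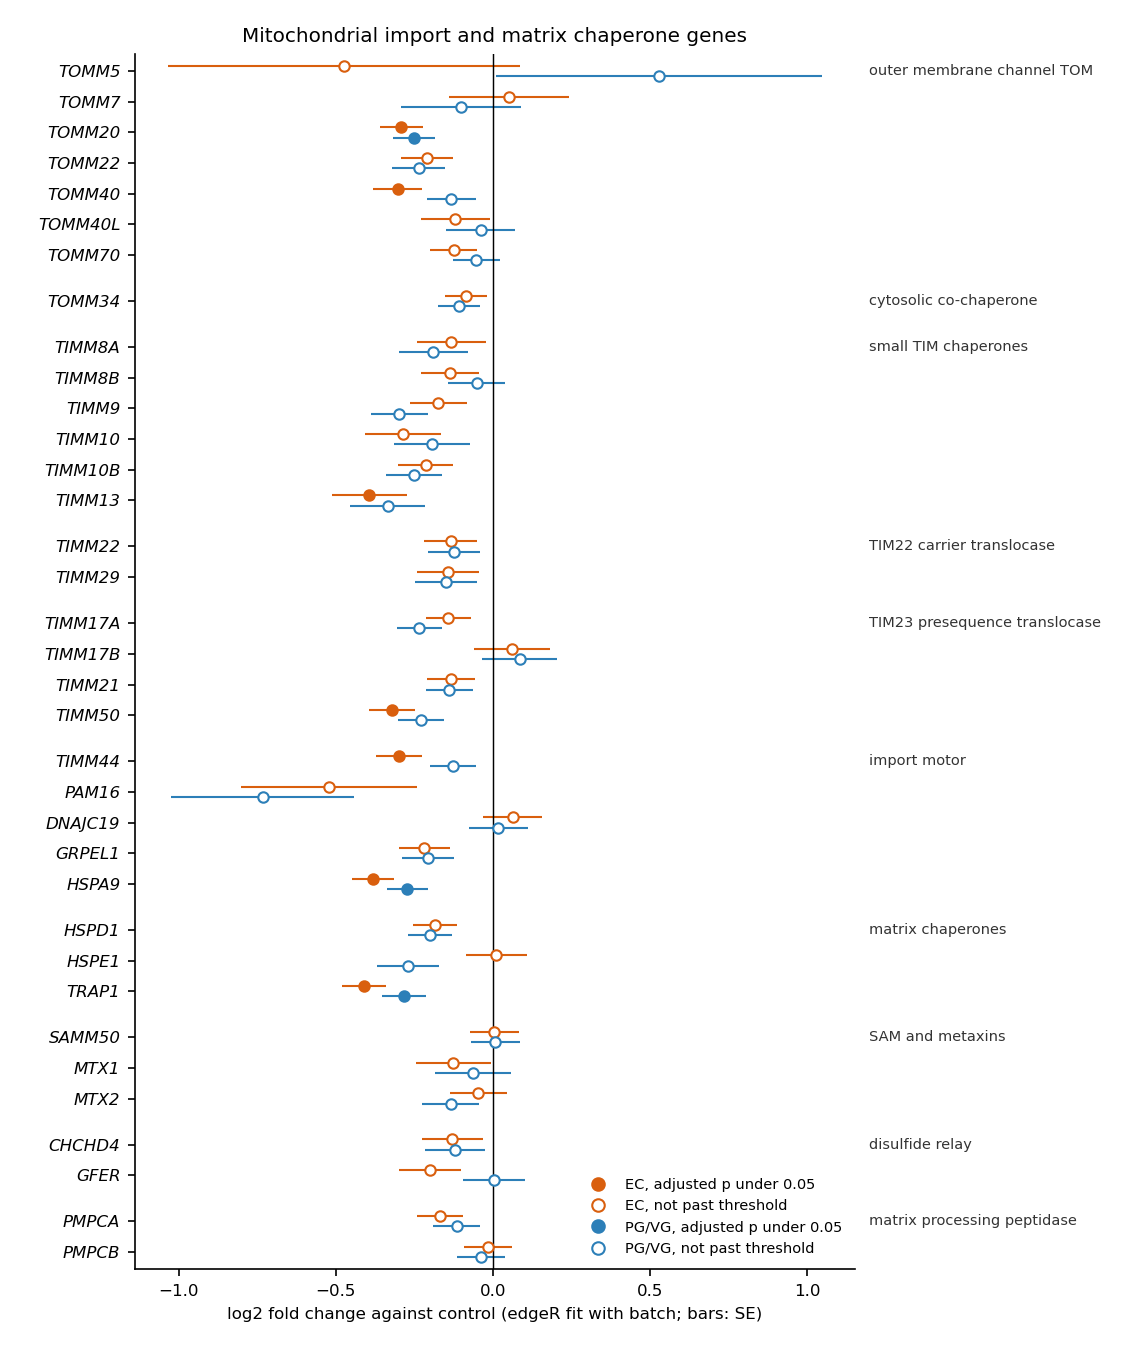
LFC against control (x axis, log2 units) of the 35 tested genes, grouped by role, for EC (orange) and PG/VG (blue), with bars for the SE. Filled circles mark an adjusted p under 0.05, 7 in EC and 3 in PG/VG, and all of these lie left of 0.

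Summed over all members, the import and chaperone genes held 3500, 3424 and 3434 CPM in control replicates 2, 3 and 4. The sums were 3022, 3025 and 3030 CPM in PG/VG and 3081, 2867 and 2893 CPM in EC. All treated libraries were below all controls, and the ranges of PG/VG and EC overlapped. HSPA9 and HSPD1 made up 41.7% to 46.5% of these sums. Without them the sums were 1873, 1889 and 2003 CPM in control, 1726, 1753 and 1703 in PG/VG, and 1753, 1633 and 1678 in EC, again with the controls highest.

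Among the 8 listed proteins of the TOM channel, TOMM20 is a receptor that binds presequences (chr1:235109341-235128837, minus strand, GRCh38). TOMM20 stood at 206, 197 and 213 CPM in control replicates 2, 3 and 4, 164, 164 and 191 CPM in PG/VG, and 173, 157 and 174 CPM in EC. Each treated library was below each control. The LFC was −0.29 ± 0.068 (SE, adjusted p = 0.00585) in EC and −0.25 ± 0.068 (adjusted p = 0.0343) in PG/VG. The EC call held in all 9 fits that each left out 1 library. The PG/VG call held in 4 of them and was lost without control replicate 2 (adjusted p = 0.128), control replicate 3 (0.174), control replicate 4 (0.0572), PG/VG replicate 2 (0.263) or PG/VG replicate 3 (0.0748). It was also lost with library size as the only scaling (0.0553), with no filter on low counts (0.0546) and with all batch 4 libraries left out (0.0527).

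TOMM40 forms the pore itself (chr19:44890569-44903689, plus strand). It had 154, 155 and 165 CPM in control, 156, 155 and 124 CPM in PG/VG, and 133, 131 and 121 CPM in EC. All EC libraries were below all controls, whereas in PG/VG only replicate 4 was. The LFC was −0.30 ± 0.078 (adjusted p = 0.0113) in EC and −0.13 ± 0.078 (adjusted p = 0.349) in PG/VG. The EC call was lost without control replicate 4 (LFC −0.20, adjusted p = 0.133) or EC replicate 4 (0.0506), and with all batch 4 libraries left out (0.0621).

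TOMM22, the central receptor that links the pore to the other receptors, had 78.3, 82.7 and 99.3 CPM in control, 71.8, 72.6 and 76.2 CPM in PG/VG, and 80.3, 73.7 and 70.2 CPM in EC. Its LFC was −0.21 (adjusted p = 0.102) in EC and −0.24 (adjusted p = 0.11) in PG/VG, where the groups did not overlap. TOMM70, the receptor for carrier proteins and a docking site of cytosolic chaperones, had 126, 118 and 96.1 CPM in control, 110, 108 and 107 CPM in PG/VG, and 111, 108 and 91.3 CPM in EC, with all groups overlapping. TOMM7, a small subunit that modulates the channel, and TOMM40L, a paralog of the pore protein, had LFCs between −0.12 and 0.05 in both comparisons. TOMM5 went from 0.943 to 3.97 CPM across the PG/VG libraries alone, with 0.53 ± 0.52 (SE) as its LFC. The cytosolic TOMM34 did not pass, with an LFC of −0.09 for EC against control and of −0.11 for PG/VG.

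**Figure D3:**
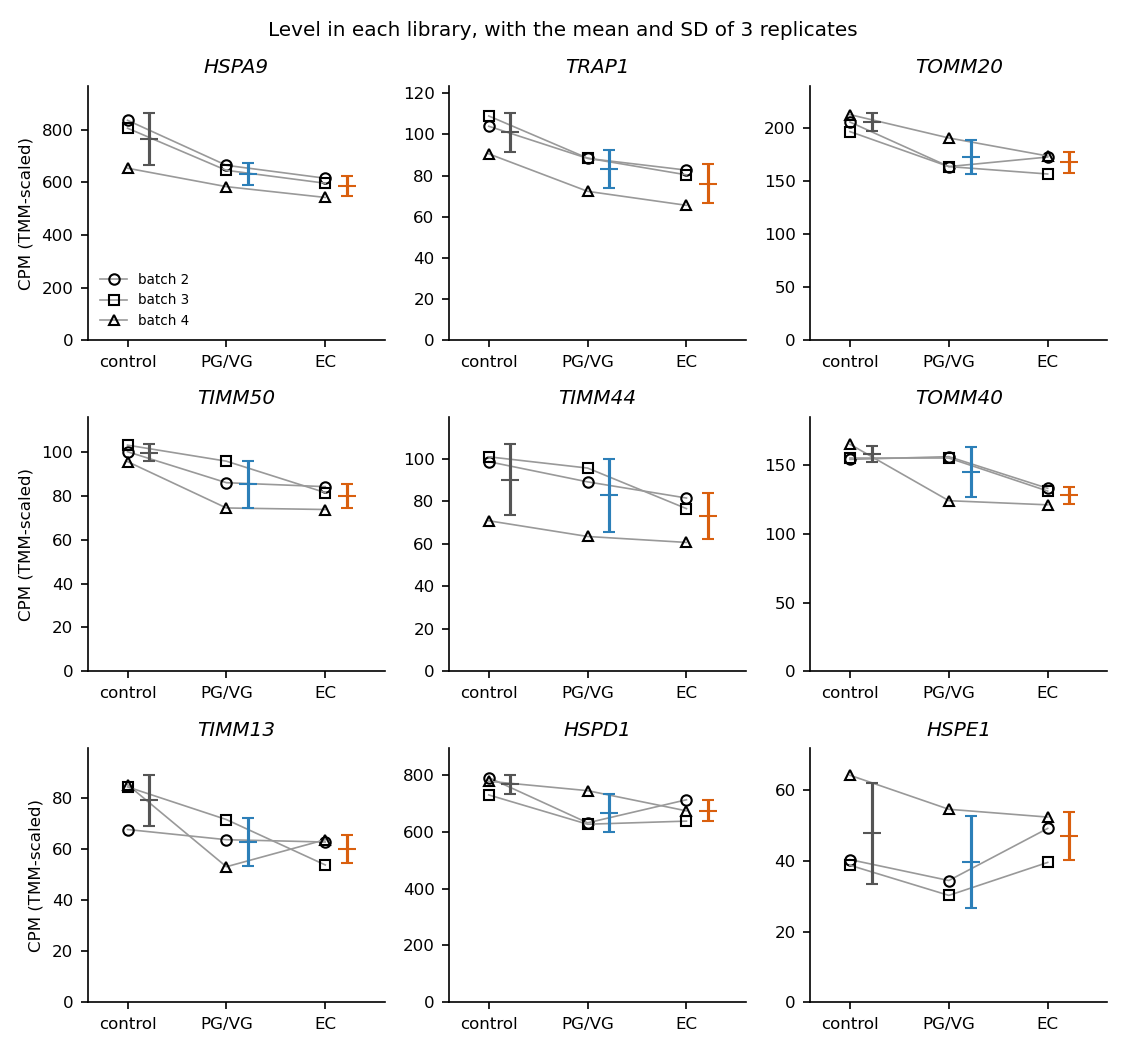
CPM in each library (y axis from 0) of 9 genes in control, PG/VG and EC, with lines joining libraries of the same batch and coloured bars for the mean and SD of 3 libraries. HSPA9 and TRAP1 go down from control to PG/VG to EC in each batch, from 836 to 616 CPM for HSPA9 in batch 2, while HSPE1 in EC overlaps the controls.

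The small TIM chaperones carry hydrophobic precursors across the space between the membranes. All 6 had an LFC below 0 in both comparisons, and 1, TIMM13 (chr19:2425625-2427586, minus strand), passed in EC. TIMM13 had 67.8, 84.5 and 85.4 CPM in control, 63.8, 71.7 and 53.2 CPM in PG/VG, and 62.9, 53.9 and 63.8 CPM in EC. Control replicate 2 was the lowest control and close to the treated libraries, and the EC group lay just below it. The LFC was −0.39 ± 0.12 (adjusted p = 0.0404) in EC and −0.34 ± 0.12 (adjusted p = 0.125) in PG/VG. This was the least stable of the EC calls. It held in 4 of the 9 fits without 1 library and was lost without control replicate 3 (adjusted p = 0.104), control replicate 4 (0.197), EC replicate 2 (0.0698), EC replicate 3 (LFC −0.25, adjusted p = 0.154) or EC replicate 4 (0.0688), and without all batch 4 libraries (0.0544). With library size as the only scaling the adjusted p was 0.0708. TMPRSS9 on the opposite strand shares 20.1% of the exon length of TIMM13, and the strand setting of the counting is not given in the sources used here. TIMM10B had nearly equal controls (26.5, 26.3 and 26.2 CPM) above all PG/VG libraries (22.7, 21.3 and 22.3 CPM) and all EC libraries (22.3, 21.8 and 24.0 CPM), with an adjusted p of 0.116 in EC and 0.109 in PG/VG. TIMM9 and TIMM10, partners in a chaperone hexamer, did not pass, with LFCs of −0.17 and −0.29 in EC. In PG/VG their LFCs were −0.30 and −0.19. TIMM8A and TIMM8B, the first a partner of TIMM13, had LFCs between −0.19 and −0.05.

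The carrier translocase was represented by TIMM22, its channel, and TIMM29, a subunit that holds it together. Neither passed. Their LFCs were −0.13 and −0.14 in EC, against −0.12 and −0.15 in PG/VG.

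Of the TIM23 complex, the channel for presequence proteins, 1 of 4 members passed. TIMM50, the receptor that meets presequences as they leave the TOM channel (chr19:39480412-39493785, plus strand), had 100, 103 and 95.5 CPM in control, 85.9, 95.7 and 74.4 CPM in PG/VG, and 84.1, 81.4 and 73.7 CPM in EC. EC was below control throughout, whereas PG/VG replicate 3 reached the level of control replicate 4. The LFC was −0.32 ± 0.074 (adjusted p = 0.0053) in EC, a call that held in all 9 fits without 1 library, and −0.23 ± 0.073 (adjusted p = 0.0747) in PG/VG. TIMM17A, a core subunit, had 78.8, 76.2 and 96.5 CPM in control, 68.1, 65.1 and 80.4 CPM in PG/VG, and 75.3, 71.3 and 80.5 CPM in EC. Its LFC was −0.14 (adjusted p = 0.209) in EC and −0.23 (adjusted p = 0.0632) in PG/VG. TIMM17B, its paralog on the X chromosome, pointed the other way with 0.06 and 0.09 (adjusted p = 0.799 and 0.755). TIMM21, which couples the complex to the respiratory chain, had −0.13 in EC, against −0.14 in PG/VG.

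The motor that pulls precursors into the matrix held 2 of the EC calls among its 5 members. HSPA9, the mitochondrial Hsp70 also known as mortalin (chr5:138553756-138575675, minus strand), had 836, 806 and 654 CPM in control, 665, 646 and 584 CPM in PG/VG, and 616, 597 and 543 CPM in EC. Batch 4 was the lowest in each condition, and within every batch the order was control, PG/VG, EC. The mean fell from 765 ± 97.7 CPM (SD, n = 3) to 631 ± 42.5 in PG/VG and 585 ± 38.1 in EC. The LFC was −0.38 ± 0.066 (adjusted p = 0.000466) in EC and −0.27 ± 0.066 (adjusted p = 0.0183) in PG/VG. The EC call held in all 9 fits without 1 library. The PG/VG call was lost without control replicate 2 (adjusted p = 0.122), control replicate 3 (0.147), PG/VG replicate 2 (0.126) or PG/VG replicate 3 (0.063).

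TIMM44 tethers HSPA9 to the channel (chr19:7926718-7943667, minus strand). It had 98.7, 101 and 70.9 CPM in control, 89.2, 95.7 and 63.5 CPM in PG/VG, and 81.6, 76.6 and 60.7 CPM in EC. The groups overlapped because batch 4 was far below the others in all conditions, and the within-batch differences of EC were −0.27, −0.40 and −0.23. The LFC was −0.30 ± 0.073 (adjusted p = 0.00831) in EC and −0.13 ± 0.073 (adjusted p = 0.342) in PG/VG. The EC call was lost without control replicate 3 (adjusted p = 0.0564) or EC replicate 3 (0.0735). GRPEL1, the nucleotide exchange factor of HSPA9, had 36.2, 34.3 and 37.4 CPM in control, above 29.2, 31.0 and 33.4 CPM in PG/VG and 30.9, 30.1 and 31.7 CPM in EC. Its groups did not overlap in either comparison, and the adjusted p was 0.0831 and 0.157. DNAJC19, a J-protein partner of the motor, had LFCs of 0.06 and 0.02. PAM16, at the low counts given above, had −0.52 ± 0.28 (SE) in EC and −0.73 ± 0.29 in PG/VG and did not pass.

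Of the 3 matrix chaperones, 1 passed in each comparison with control. TRAP1, the mitochondrial Hsp90 (chr16:3651639-3717553, minus strand), had 104, 109 and 90.6 CPM in control, 88.4, 88.5 and 72.4 CPM in PG/VG, and 82.7, 80.4 and 65.6 CPM in EC. As for HSPA9, batch 4 was lowest and each batch ran from control through PG/VG to EC. The LFC was −0.41 ± 0.070 (adjusted p = 0.000399) in EC, with the smallest adjusted p among the members, and −0.28 ± 0.070 (adjusted p = 0.0194) in PG/VG. The EC call held in all 9 fits without 1 library. The PG/VG call was lost without control replicate 3 (adjusted p = 0.122), control replicate 4 (0.0829), PG/VG replicate 2 (0.108), PG/VG replicate 3 (0.0537) or PG/VG replicate 4 (0.0646), and without all batch 4 libraries (0.0856). DNASE1, on the opposite strand, shares 28.5% of the exon length of TRAP1.

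HSPD1 and HSPE1, the chaperonin and its lid, lie on opposite strands of chromosome 2 and are read from a shared region. The gene bounds of HSPE1 fall within those of HSPD1. HSPD1 (chr2:197486584-197516737, minus strand) had 790, 729 and 777 CPM in control, 631, 626 and 744 CPM in PG/VG, and 712, 637 and 673 CPM in EC. EC lay below control in every library, but the LFC of −0.18 ± 0.070 had an adjusted p of 0.0847, and that of −0.20 ± 0.070 in PG/VG had 0.103. HSPE1 (chr2:197500140-197503449, plus strand) had 40.3, 38.7 and 64.1 CPM in control, 34.4, 30.2 and 54.5 CPM in PG/VG, and 49.1, 39.5 and 52.3 CPM in EC. Batch 4 was the highest in each condition. The LFC of HSPE1 was 0.01 ± 0.097 (adjusted p = 0.961) in EC and −0.27 ± 0.098 (adjusted p = 0.118) in PG/VG. In EC vs. PG/VG the LFC of HSPE1 was 0.28 ± 0.096, with an unadjusted p of 0.00822 and an adjusted p of 0.187, and the differences were 0.52, 0.39 and −0.06 in batches 2, 3 and 4. Without EC replicate 4 it was the 1 member called in that comparison. Both genes have processed copies elsewhere in the genome, and multi-mapping reads were not counted. HSPE1 shares 17.9% of its exon length with HSPE1-MOB4 on the same strand or HSPD1 on the other. Reads on more than 1 gene were not counted either, so the level of HSPE1 is less certain.

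The remaining members showed small differences, and none passed in any comparison. SAMM50, the core of the machine that inserts beta-barrel proteins, had 59.3 ± 5.25 CPM (SD, n = 3) in control, 59.6 ± 5.40 in PG/VG and 59.4 ± 5.44 in EC, means that differed by less than their SD. Its partners MTX1 and MTX2 had LFCs between −0.13 and −0.05. MTX1 is uncertain, since its neighbouring copy MTX1P1 took 2387 counts over the 9 libraries against 4056 for MTX1. CHCHD4, the oxidoreductase that traps cysteine-rich proteins between the membranes, had 24.1, 23.8 and 18.2 CPM in control, 21.5, 20.7 and 18.3 CPM in PG/VG, and 22.7, 22.3 and 15.6 CPM in EC, with overlapping groups. GFER, which reoxidizes CHCHD4, had an LFC of −0.20 in EC, against 0.00 in PG/VG. PMPCA and PMPCB, the subunits of the peptidase that cleaves presequences, had LFCs of −0.17 and −0.02 in EC. In PG/VG these were −0.12 and −0.04.

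**Figure D4:**
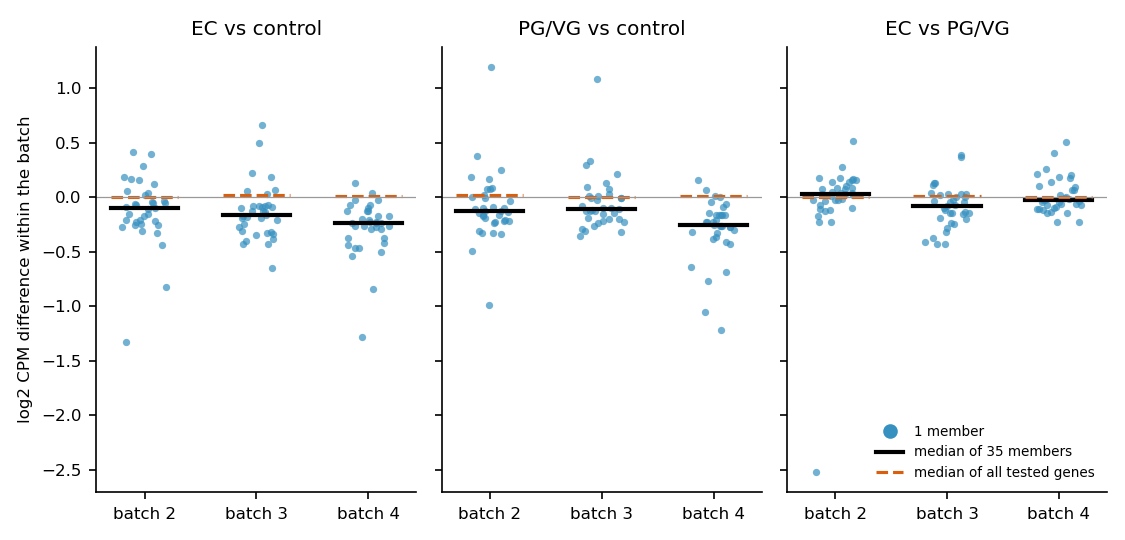
Difference in log2 CPM within each batch (y axis) in panels for each treatment against control and for EC against PG/VG, with 1 point per tested member, a black line for their median and a dashed line for the median of all tested genes. The member median lies below 0 in each batch for both treatments against control (−0.24 for EC in batch 4) and near 0 for EC vs. PG/VG.

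Among the members, batch 4 differed from the other batches in both directions. Relative to the mean of batches 2 and 3, 9 of the 35 genes were higher in batch 4 in all 3 conditions, 9 were lower and 17 were mixed. The share over all tested genes was not computed, so these counts do not set the members apart from other genes. HSPE1 was higher by 0.69, 0.75 and 0.25 on the log2 scale in control, PG/VG and EC, and TOMM34 by 0.48, 0.57 and 0.57. TIMM44 was lower, at −0.49, −0.54 and −0.38. For TOMM34 and TIMM44 this step exceeded the LFC of either treatment. With the batch 4 libraries left out, 5 genes were called in EC (HSPA9, TRAP1, TOMM20, TIMM50 and TIMM44) and HSPA9 alone in PG/VG (adjusted p = 0.0267), and the medians were −0.16 and −0.14.

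Other genes of the pathway were taken from 5 lists. In the order below, 6.67%, 18.8%, 0%, 33.3% and 13.3% of their tested genes were called in EC, against 13.5% of all tested genes. In PG/VG these shares were 0%, 6.25%, 12.5%, 33.3% and 6.67%, against 4.54%. The lists are short, and their counts are descriptions. Of 16 further import genes, 15 were tested, including the channel protein TIMM23 (LFC −0.12 in EC, adjusted p = 0.35), and 1 fell in EC, GRPEL2, the paralog of GRPEL1 (−0.25 ± 0.081, adjusted p = 0.0426). Its differences were −0.46, −0.26 and −0.01 in batches 2, 3 and 4. The call was lost without control replicate 2 (LFC −0.15, adjusted p = 0.349), control replicate 3 (0.141), EC replicate 2 (0.155) or EC replicate 3 (0.109), and with library size as the only scaling (0.125). None of the 15 passed in PG/VG.

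Of 16 mitochondrial proteases and quality control genes, 2 fell and 1 rose in EC. LONP1, the matrix protease that degrades misfolded and oxidized proteins, went from 319 ± 68.1 CPM (SD, n = 3) in control to 246 ± 46.1 in EC and 268 ± 69.4 in PG/VG. Its LFC was −0.36 ± 0.070 (adjusted p = 0.00134) in EC, a call that held in all 9 fits without 1 library, and −0.26 ± 0.070 (adjusted p = 0.0331) in PG/VG. The PG/VG call was lost without control replicate 2 (0.0604), control replicate 3 (0.183), control replicate 4 (0.0867), PG/VG replicate 2 (0.125) or PG/VG replicate 4 (0.156), and without all batch 4 libraries (0.136). PHB2, a prohibitin scaffold of the inner membrane, fell in EC (−0.27 ± 0.075, adjusted p = 0.0201), a call lost without control replicate 3 (0.0555), control replicate 4 (0.134), EC replicate 3 (0.116) or EC replicate 4 (0.121), with library size as the only scaling (0.0654) and without all batch 4 libraries (0.182). OMA1, a stress-activated inner membrane protease, rose in EC from 8.81 ± 0.178 to 11.8 ± 0.723 CPM (LFC 0.43 ± 0.12, adjusted p = 0.0195). The OMA1 call was lost in 5 of the 9 fits, without any of the 3 control libraries or without EC replicate 2 or EC replicate 3, with adjusted p up to 0.0884. It was also lost under DESeq2 with the batch in the model (0.0523) and without all batch 4 libraries (0.0567).

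Of 8 cristae organizers, none passed in EC and MICOS10, a core subunit of the MICOS complex, fell in PG/VG (−0.46 ± 0.12, adjusted p = 0.0215), a call lost without control replicate 2 (0.173), PG/VG replicate 2 (0.164) or PG/VG replicate 4 (0.0939), and without all batch 4 libraries (0.0907). Of 6 regulators of the mitochondrial stress response, TRIB3, a pseudokinase induced by ATF4, fell in EC (−0.39 ± 0.097, adjusted p = 0.0145), and ATF5, a transcription factor of that response, rose (0.34 ± 0.10, adjusted p = 0.0314). The differences of TRIB3 were −0.53, −0.64 and 0.02 in batches 2, 3 and 4, and with all batch 4 libraries left out its LFC was −0.59 (adjusted p = 0.00077). The TRIB3 call was lost without control replicate 2 (0.0826), control replicate 3 (0.0669), EC replicate 2 (0.124) or EC replicate 3 (0.0912). ATF5 was lost without control replicate 2 (0.207), control replicate 3 (0.10), EC replicate 2 (0.105) or EC replicate 4 (0.232), under DESeq2 with the batch in the model (0.0537) and without all batch 4 libraries (0.0688). In PG/VG, DDIT3, the factor CHOP, fell (−0.35 ± 0.10, adjusted p = 0.0472), as did CEBPB, its dimer partner (−0.31 ± 0.074, adjusted p = 0.0171). DDIT3 was lost without control replicate 2 (0.119), control replicate 3 (0.271), PG/VG replicate 2 (0.21) or PG/VG replicate 4 (0.197), with library size as the only scaling (0.0641) and without all batch 4 libraries (0.0856). CEBPB was lost without control replicate 3 (0.137), PG/VG replicate 2 (0.0829) or PG/VG replicate 4 (0.101), and without all batch 4 libraries (0.0714). ATF4, which regulates several of these genes, had 776 ± 131 CPM in control, 700 ± 164 in PG/VG and 708 ± 133 in EC and did not pass.

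The last list held 15 genes of mitochondrial content and biogenesis. In EC, 2 of them fell. PPRC1, a PGC-1-related coactivator, had an LFC of −0.33 ± 0.072 (adjusted p = 0.00422), a call that held in all 9 fits without 1 library. TFB2M, a factor of mitochondrial transcription, had −0.40 ± 0.11 (adjusted p = 0.0146), a call lost without control replicate 4 (0.135), EC replicate 3 (0.0904) or EC replicate 4 (0.0839), and without all batch 4 libraries (0.15). In PG/VG, CYCS, which encodes cytochrome c, fell (−0.25 ± 0.067, adjusted p = 0.032), a call lost without control replicate 2 (0.155), control replicate 3 (0.126), control replicate 4 (0.0642), PG/VG replicate 2 (0.232) or PG/VG replicate 4 (0.0805), with library size as the only scaling (0.0528), with no filter on low counts (0.0559) and without all batch 4 libraries (0.0877). The content markers VDAC1, a channel of the outer membrane, and CS, citrate synthase, had LFCs of −0.20 and −0.19 in EC (adjusted p = 0.0502 and 0.054). In EC these 15 genes had a median LFC of −0.12 (−0.14 for the import and chaperone genes), and in PG/VG they had −0.13, as did the import and chaperone genes. Genes of the mitochondrial genome took 1.49%, 1.68% and 1.92% of the counts in control replicates 2, 3 and 4. The shares were 1.39%, 1.77% and 1.54% in PG/VG and 1.32%, 1.45% and 1.83% in EC. EC was below control in each batch and PG/VG in batches 2 and 4, which was not tested. None of these 5 lists held a gene that passed in EC vs. PG/VG.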

How the data were processed

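Poly(A) RNA from 9 cultures of BEAS-2B cells was sequenced. After trimming (fastp) and alignment to GRCh38.p12 (STAR), the authors counted reads on exons with featureCounts of Subread 2.0.4, leaving out multi-mapping and multi-overlapping reads. Raw counts of 63187 genes were deposited, without batch adjustment or filter. The strand setting is not given in the sources used here.

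Symbols, gene bounds and exon lengths came from GENCODE 44, which lacked 521 of the rows. A gene needed 10 or more counts in 3 or more libraries. The test was edgeR 4.0.16 in R 4.3.3, using TMM, robust dispersions and 1 quasi-likelihood fit of all 9 libraries with condition and batch, and Benjamini-Hochberg adjustment over 16030 genes. The SE of an LFC is its size divided by the square root of the F statistic. Differences within a batch used log2 CPM with a prior count of 0.5. RPKM divides CPM by the summed length of all annotated exons, which lowers the value of genes with many rarely used exons. TMM factors lay between 0.971 and 1.045.

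Libraries of the same number in different conditions deviated together from their condition means (correlation 0.304 to 0.682 in 9 pairs). The 18 pairs of different numbers had −0.507 to 0.391, and all negative values involved a batch 4 library. Pairs of number 2 with number 3 had 0.251 to 0.391, against 0.304 to 0.367 within number 2 or within number 3. These correlations set batch 4 apart and do not separate 2 from 3. The number was the replicate block because the labels give it as batch and the authors adjusted for batch. No libraries were duplicates. The steps were tested on simulated data. Recovery was required only for a change larger than that of any call named here, leaving aside calls made only under the alternatives below. The members, the other gene lists and the tests were chosen with earlier results of these data known, so counts over a list are descriptions. All tested members were described by role, with full statistics for those past the threshold and values per library for those and for HSPD1, HSPE1, TOMM22, TOMM70, TIMM17A and CHCHD4, set by role. TIMM10B and GRPEL1 were given per library after their values were seen. Alternatives were no replicate block, RLE or library size as scaling, 2 other filters, DESeq2 1.42.0 with batch, ComBat-Seq of sva 3.50.0 before DESeq2 (the study's route, without shrinkage), the 2 groups alone, a threshold of 0.01, thinned counts and each library left out. Leaving out batch 4 was added after seeing the data. One marker gene examined is not reported here.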

Additional observations from a re-analysis of the deposited data

How the results depend on the processing

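Of the import and chaperone genes, the 7 calls in EC vs. control were kept in full under RLE, both other filters, DESeq2 with the batch, the 2 groups alone and thinned counts. Without the replicate block, 0 members were called in EC vs. control, 0 in PG/VG vs. control and 0 in EC vs. PG/VG, and over all genes the counts were 16, 1 and 1. The calls on the named genes of the 5 other lists were lost without it too. Without the block, 8 members had an unadjusted p under 0.05 in each comparison with control. The cause of the other shifts was not tested.

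In EC vs. control the members called were 12 with ComBat-Seq counts, and 5 to 9 when each library was left out. Over all genes the count of 2157 became 3099 with ComBat-Seq counts, 963 at an adjusted p under 0.01 and 1216 without batch 4. It ranged from 1162 to 2172 with 1 library left out. In PG/VG vs. control the 3 members became 12 with ComBat-Seq counts, 10 with the 2 groups alone, 0 at an adjusted p under 0.01 and 1 without batch 4, and ranged from 0 to 9 with 1 library left out. Over all genes the 727 became 1735, 1241, 226 and 324 under these settings, and ranged from 192 to 1084. In EC vs. PG/VG the count of 0 became 1 with no filter on low counts (TOMM5), 1 with ComBat-Seq counts (HSPE1) and 1 with the 2 groups alone (TOMM5), and was 0 or 1 with 1 library left out. Over all genes the 137 became 309, 658 and 316 under these settings, 45 at an adjusted p under 0.01 and 80 without batch 4, and ranged from 32 to 208. With library size as the only scaling, the calls over all genes split into 609 higher and 236 lower in PG/VG vs. control, in place of 422 and 305, and into 145 and 31 in EC vs. PG/VG, in place of 89 and 48. The median LFC of the members stayed below 0 in both comparisons with control under every setting tried, between −0.20 and −0.08 in EC and between −0.18 and −0.10 in PG/VG, and took either sign in EC vs. PG/VG.

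Thinning the counts to the smallest library kept all 7 calls in EC and all 3 in PG/VG. Among the import and chaperone genes, the smallest fall called was that of TOMM20 in PG/VG, by 16%.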
